A study of Mus musculus with 10 samples.

Results

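miR-320 and miR-484 are 2 of the 285 mature miRNAs measured in mouse liver, and they were chosen by name: a row entered if its name, without the species prefix and any arm suffix, was miR-320 or miR-484. Each name matched 1 row, with no arm given. The pair was proposed with their lower values in mutant liver and their joint variation across libraries already known, so the genotype differences and the correlation below are descriptions and carry no test. The samples were 10 small RNA libraries of total RNA from liver of mice aged 14 weeks, 5 from L-Tsc1KO animals, labelled TSC1 mutant, and 5 from their littermate controls. Tsc1 encodes a subunit of the complex that holds back the growth kinase mTORC1. The sources used here do not give the driver of the knockout in liver, the sex of the mice or which animal gave each library, so the spread between libraries may be partly technical.

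Most miRNAs are cut from long primary transcripts by the nuclear enzyme Drosha with its partner Dgcr8, and the hairpin so released is then cut by Dicer. The precursors of miR-320 and miR-484 skip the first cut: transcription itself makes a short hairpin that begins with a 5′ cap, and Dicer alone is needed, as shown in mouse cells that lack Dgcr8. The capped precursor of miR-320 leaves the nucleus through exportin 1 in place of the usual exportin 5. miR-320 has been linked to insulin resistance in cultured mouse adipocytes, and miR-484 to mitochondrial fission in mouse heart muscle cells, where it targets Fis1.

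The hairpin of miR-320 lies at chr14:70443510-70443591 on the plus strand (GRCm38) and overlaps no other annotated gene. The nearest coding gene is Polr3d, a subunit of RNA polymerase III, which runs on the opposite strand and begins 63 bases away. The hairpin of miR-484 lies at chr16:14159626-14159692 on the plus strand. It is inside the span of Marf1 on the opposite strand, and its last 19 bases overlap an exon of the transcript Marf1-202 that starts at 14159674. The mature miR-484, at 14159630 to 14159651, ends before that exon. The neighbouring gene on its own strand, Nde1, starts 3583 bases downstream.

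The hairpin of miR-484 as annotated in RefSeq (GRCm38.p6) is shown first, with the mature miRNA in capitals. The mature strand begins at base 5 of 67 of the annotated hairpin, whose 5′ end was not tested as the capped end. The other lines give mature sequences 5′ to 3′ with the seed, bases 2 to 8, in capitals. They are miR-484 and, of the miRNAs whose levels or deviations were most like it, those found in RefSeq under exactly the name used in the table.
miR-484 hairpin: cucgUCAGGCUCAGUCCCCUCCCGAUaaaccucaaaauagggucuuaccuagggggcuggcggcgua
miR-484: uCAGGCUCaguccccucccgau
miR-574-3p: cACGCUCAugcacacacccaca
miR-3962: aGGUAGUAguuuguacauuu
miR-342-3p: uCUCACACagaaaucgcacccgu
The seed of miR-484 was shared by 0 of the other miRNAs in the RefSeq table, which holds 1679 named mature miRNAs, and the seeds of its look-alikes all differed from it and from each other. The mature miR-484 had a GC content of 63.6%, against 59.1% for miR-574-3p, 52.2% for miR-342-3p and 30% for miR-3962.

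Both miRNAs had lower means in Tsc1 mutant liver. Levels are in normalised reads, the authors' read counts divided by 1 factor per library. In controls 1 to 5, miR-320 was at 3714, 6025, 7362, 6879 and 5080 normalised reads. In mutants 1 to 5 it was at 2435, 4297, 3249, 3163 and 3756 normalised reads. The groups overlapped, because control 1 lay below mutants 2 and 5, whereas the other 4 controls lay above every mutant. The mean fell from 5812 ± 1460 to 3380 ± 696 normalised reads (SD, n = 5 each). The log2 difference, mutant minus control on the log2(value + 1) scale, was -0.77 ± 0.21 (SE), or 0.588-fold.

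For miR-484 the difference was smaller and the groups were apart. Controls 1 to 5 had 1069, 1496, 1495, 1509 and 1129 normalised reads. Mutants 1 to 5 had 972, 978, 894, 878 and 1029 normalised reads. All 5 mutants lay below the lowest control, by a narrow margin between mutant 5 and control 1. The mean of miR-484 was 1340 ± 221 normalised reads over the controls, against 950 ± 62.9 over the mutants (SD, n = 5 each). Its log2 difference was -0.48 ± 0.15 (SE), or 0.716-fold.

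In the limma fit over all 285 miRNAs, 1 of the 2 members, miR-320, was called lower at a Benjamini-Hochberg adjusted p of 0.05, where 2.11% of all miRNAs were called lower and 10.9% higher. miR-484 missed that threshold. Every mutant lay below every control in 1 of the 2, miR-484, and in 2.46% of all miRNAs; every mutant lay above every control in 0 of the 2 and in 10.2% of all miRNAs. Because the pair was chosen with this contrast known, nothing is read from these counts. Over the table the median log2 difference was -0.06, with quartiles of -0.31 and 0.19. A more negative log2 difference was seen in 20 of 285 miRNAs for miR-320 and in 45 of 285 for miR-484.

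The call of miR-320 was not stable when libraries were left out. With 1 library left out at a time, it was lost in 8 of 10 fits, with log2 differences from -0.81 to -0.65. It was kept without control 1, at -0.92, and without mutant 2, at -0.86. miR-484 was called lower only without control 1, at -0.56, among these 10 fits. Without both libraries numbered 1 the log2 differences were -0.81 for miR-320 and -0.57 for miR-484, and both were called lower. The pair was chosen with this contrast known, so these calls only describe how the fit behaved.

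**Figure D1:**
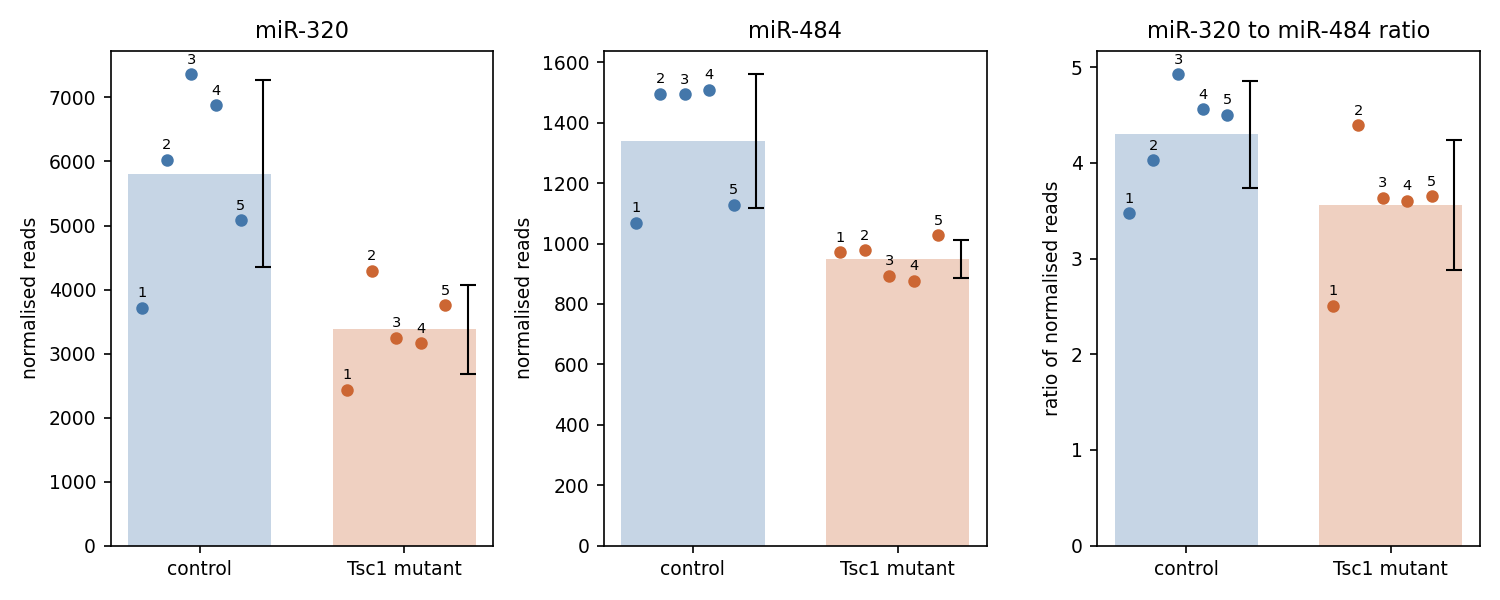
Normalised reads of miR-320 (left) and miR-484 (middle) and their ratio (right) in each library; points carry the replicate number, bars are group means and the black lines the SD (n = 5 each). For miR-484 the mutants lie between 878 and 1029 and the controls between 1069 and 1509, whereas for miR-320 control 1, at 3714, lies among the mutants.

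Counting error was below the spread between libraries, by the least margin for miR-484 in mutants. miR-320 was read between 2206 and 8539 times per library and miR-484 between 612 and 2104 times, so that the Poisson error of a single library was at most 2.13% and 4.04%. The coefficient of variation between libraries was 25.1% in controls and 20.6% in mutants for miR-320. For miR-484 it was 16.5% in controls and 6.62% in mutants. Both varied less within genotype than the median miRNA. The SD of log2 values within genotype was 0.35 for miR-320 and 0.19 for miR-484, against a median of 0.44 over all miRNAs. A smaller SD was seen in 103 of 285 miRNAs for miR-320 and in 26 of 285 for miR-484. All miRNAs here include some near the limit of counting, and no comparison at similar abundance was made.

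As shares of all listed miRNA reads the levels were low. miR-320 made up 0.0605 ± 0.0121% of control reads, against 0.0367 ± 0.00736% of mutant reads (SD, n = 5 each). Its lowest share, in mutant 1, was 0.0266% (95% exact binomial interval 0.0257 to 0.0276%). For miR-484 the shares were 0.0141 ± 0.00222% and 0.0103 ± 0.000639%. The groups kept the same order on this scale, and miR-484 did not overlap between them. Its highest mutant share was 0.0110% (0.0104 to 0.0117%), in mutant 5, and its lowest control share 0.0116% (0.0109 to 0.0123%), in control 5, so that these intervals overlapped.

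The ratio of miR-320 to miR-484 does not depend on the scaling of a library. In controls 1 to 5 it was 3.47, 4.03, 4.92, 4.56 and 4.50. In mutants 1 to 5 it was 2.51, 4.39, 3.64, 3.60 and 3.65. The groups overlapped, with mutant 2 among the controls and control 1 among the mutants. The mean ratio was 4.30 ± 0.560 for the controls, against 3.56 ± 0.675 for the mutants (SD, n = 5 each), and the log2 ratio differed by -0.28 ± 0.16 (SE). Mutant 1 held the lowest ratio, and without it the log2 difference was -0.16 ± 0.12 (SE).

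miR-320 and miR-484 varied together across the libraries. Over the 10 libraries Pearson's r of their log2 values was 0.90 and Spearman's rho 0.88. Without controls 3 and 4, the libraries farthest from the median of miR-320, r was 0.80 (n = 8). After the genotype means were removed r was 0.74 and rho 0.77 (n = 10), and without both libraries numbered 1, which lay farthest from the median there, r was 0.81 (n = 8). The points share the library, its depth, its scaling factor and its base composition. Over all 40470 pairs of miRNAs in the table the median r was -0.02, and 98.0% of pairs had a lower r. With the genotype means removed, 90.1% of pairs had a lower r. The pair was proposed with its joint variation known, so these shares describe it and test nothing. The pairs of the table also include miRNAs near the limit of counting.

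The libraries behind this pattern can be named. Control 1 was the lowest control for both miRNAs, 0.61 below the genotype mean for miR-320 and 0.31 below it for miR-484 on the log2 scale. Controls 2, 3 and 4 were above their mean for both. Mutant 1 departed from the pattern: miR-320 was 0.45 below the genotype mean on the log2 scale, and miR-484 was 0.04 above it. Without mutant 1, r was 0.95 for the levels and 0.89 for the deviations (n = 9). Over all miRNAs the deviations of control 1 and mutant 1 had an r of 0.81. A source common to these libraries was not tested.

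**Figure D2:**
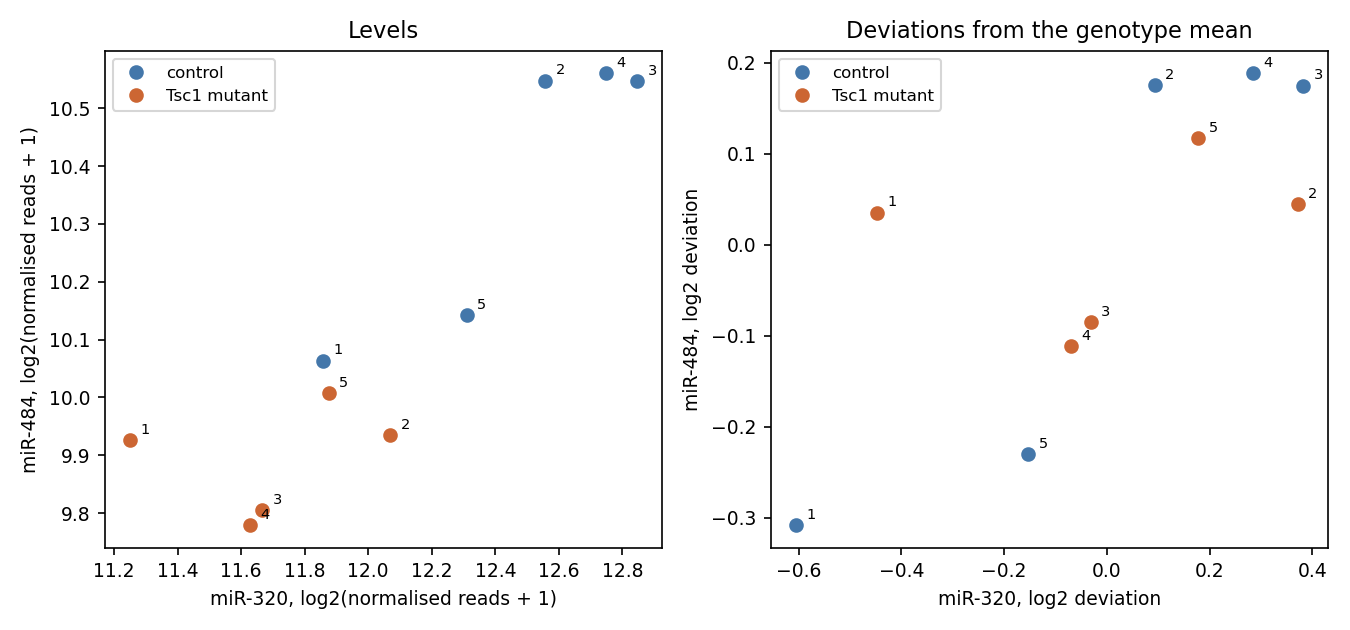
Log2(normalised reads + 1) of miR-484 against miR-320 in the 10 libraries (left), and deviations from the genotype mean on the log2 scale (right), with replicate numbers beside the points. The left panel has Pearson's r of 0.90 and the right one of 0.74, with mutant 1 away from the others on the right.

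Other miRNAs had patterns as close to that of miR-320, whereas none was as close to miR-484 as miR-320 was. Likeness was measured as Pearson's r of log2 values over the 10 libraries, among the 245 miRNAs whose mean reached 20 normalised reads. For miR-320 the order was miR-455 at an r of 0.93, then miR-484, miR-574-5p at 0.90, miR-222 at 0.90 and miR-149 at 0.86. For miR-484 it was miR-320, then miR-149 at 0.86, miR-3962 at 0.84, miR-574-3p at 0.83 and miR-222 at 0.82. All of these had lower means in mutants. The ranking took in the genotype difference, and the members were chosen with their lower mutant values known. The direction was therefore largely set by the choice, and the calls below only describe these rows. miR-455, hosted by the collagen gene Col27a1, went from 3825 ± 2155 to 1372 ± 626 normalised reads (SD, n = 5 each), a log2 difference of -1.37 ± 0.58 (SE) that missed the threshold; without control 1 it was -1.86 and called lower. miR-149, hosted by the glypican gene Gpc1, fell by 1.67 ± 0.29 (SE) on the log2 scale and miR-3962 by 0.76 ± 0.20 (SE), and limma called both lower after Benjamini-Hochberg adjustment. The call of miR-149 was kept in all 10 fits without 1 library, and that of miR-3962 was lost without control 3, control 5, mutant 2 or mutant 4, at adjusted p from 0.0586 to 0.0784 in limma. The log2 differences of miR-222, a partner of miR-221, and of miR-574-5p and miR-574-3p were -0.55, -0.72 and -0.78, and they missed it. Without control 1 miR-222 was called lower at -0.68 and miR-574-3p at -0.94, and miR-574-3p also without control 2, at -0.88.

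Within genotype the likeness was of another kind. The deviations of miR-320 were most like those of miR-3968 at an r of 0.96, miR-98 of the let-7 family at 0.94 and miR-1198-5p at 0.93 (n = 10). Their log2 differences between genotypes were -0.09, -0.01 and -0.40, and none passed the threshold. miR-484 ranked 51 by this measure for miR-320. The deviations of miR-484 were most like those of miR-342-3p at 0.76 and miR-15b at 0.74, and miR-320 ranked 3. miR-122, the dominant hepatocyte miRNA, had an r with miR-320 of 0.87 within genotype and with miR-484 of 0.55.

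Among other miRNAs with unusual precursors, miR-1839-5p and miR-451 were more abundant than miR-484 and the rest less so. Of 11 listed names 5 had rows in the table, 6 rows in all. None of the 6 passed the limma threshold in either direction, and all 6 had log2 differences below 0, with a median of -0.52. Of all miRNAs 10.9% were called higher and 2.11% lower, 57.5% lay below 0 and the median was -0.06, and 0 calls among 6 rows is near these shares. Mirtrons are short introns that splicing releases in place of Drosha. Of these, miR-1981 ran from 444 to 861 normalised reads in controls, with a median of 790, and from 492 to 698 in mutants, with a median of 598, and the groups overlapped. Its log2 difference was -0.24 ± 0.20 (SE). The mirtron miR-877 was near the limit of counting, at 7 to 35 reads per library in controls and 1 to 8 in mutants. Its log2 difference of -1.15 ± 0.52 (SE) was the most negative of the 6, below that of miR-320, and the groups overlapped.

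Of the miRNAs cut from other small RNAs, miR-1839, which derives from a small nucleolar RNA, has a common arm, miR-1839-5p, of similar abundance to miR-320. Controls 1 to 5 had 5863, 4281, 5376, 5114 and 5066 normalised reads of it, and mutants 1 to 5 had 5941, 4586, 5337, 4454 and 4886, so the groups overlapped over nearly their whole range. The means were 5140 ± 575 and 5041 ± 607 (SD, n = 5 each), a log2 difference of -0.03 ± 0.13 (SE). Its rare arm, miR-1839-3p, had 3 to 40 reads per library and a log2 difference of -0.95 ± 0.40 (SE). miR-1983, which derives from a transfer RNA, had 6 to 57 reads per library and a log2 difference of -0.80 ± 0.40 (SE). miR-451, an erythroid miRNA that is cut by Drosha but matured by Ago2 in place of Dicer, was at -0.06 ± 0.33 (SE). With median centring, which moves the median of all miRNAs from -0.06 to -0.41, miR-1839-3p was called lower at -1.30 and miR-1983 at -1.16, and no other alternative called any of the 6.

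**Figure D3:**
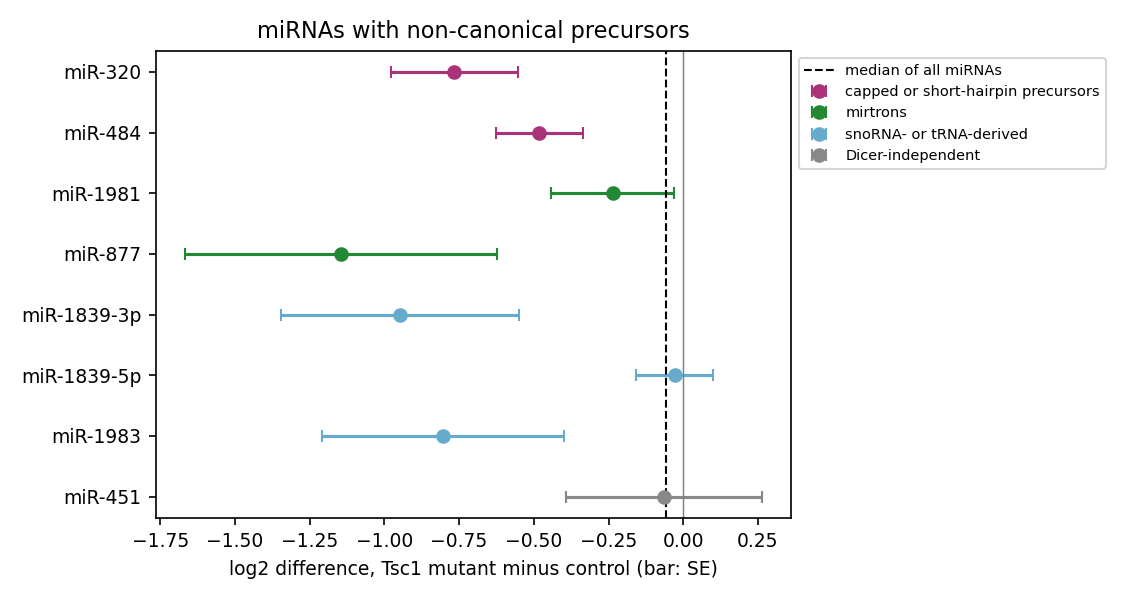
Log2 difference, Tsc1 mutant minus control, of the 8 rows with non-canonical precursors, coloured by the kind of precursor; bars are SE from limma (n = 5 each) and the dashed line is the median of all 285 miRNAs, at -0.06. miR-877 lies lowest at -1.15, miR-320 lies at -0.77 and miR-484 at -0.48, and miR-1839-5p and miR-451 lie close to the dashed line.

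The log2 difference between genotypes fell weakly with hairpin GC content. Pearson's r was -0.22 over 275 miRNAs and -0.24 over the 244 outside the imprinted chromosome 12 cluster. The hairpins of miR-320 and miR-484 had GC contents of 63.4% and 58.2%, above those of 258 and 226 of the 275 miRNAs with an annotated hairpin, whose median was 50%. The slope of log2 values on hairpin GC content, relative to the mean of the 10 libraries, was between 0.0817 and 0.191 per 10 percentage points in controls and between -0.157 and -0.0781 in mutants. The groups of slopes did not overlap. The group means of the slopes are opposite in sign by construction, because values are relative to the mean of the 10 libraries. Fitted without the 31 miRNAs of the imprinted chromosome 12 cluster, the slopes ran from -0.000275 to 0.130 in controls and from -0.102 to -0.00093 in mutants. Within genotype, log2 levels of miR-320 had a correlation of 0.37 with the slope over all 275 miRNAs and of 0.69 with the slope fitted without the cluster (n = 10). For miR-484 these correlations were 0.19 and 0.52, and the library, its depth and its scaling are common to both measures.

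With the slope removed from each library, miR-320 was at -0.44 ± 0.20 and miR-484 at -0.28 ± 0.15 on the log2 scale (SE), and neither was called. With the slope fitted outside the cluster, the values were -0.60 ± 0.20 and -0.38 ± 0.14 (SE), again without a call. The 47 other miRNAs with a GC content at or above that of miR-484 had a median log2 difference of -0.17, and 13 of them, or 27.7%, were at or below miR-484. Of the 133 miRNAs with a GC content under 50%, 14, or 10.5%, were. The part of base composition in the lower values of the pair was not tested beyond these linear corrections. The 5 miRNAs closest to miR-320 in GC content were miR-296-3p, miR-486, miR-25, miR-150 and miR-187, with log2 differences from -1.08 to 0.11, of which 1 was below miR-320. Those closest to miR-484 were miR-700, miR-330, miR-181c, miR-324-3p and miR-324-5p, from -0.22 to 0.45, with 0 below miR-484.

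**Figure D4:**
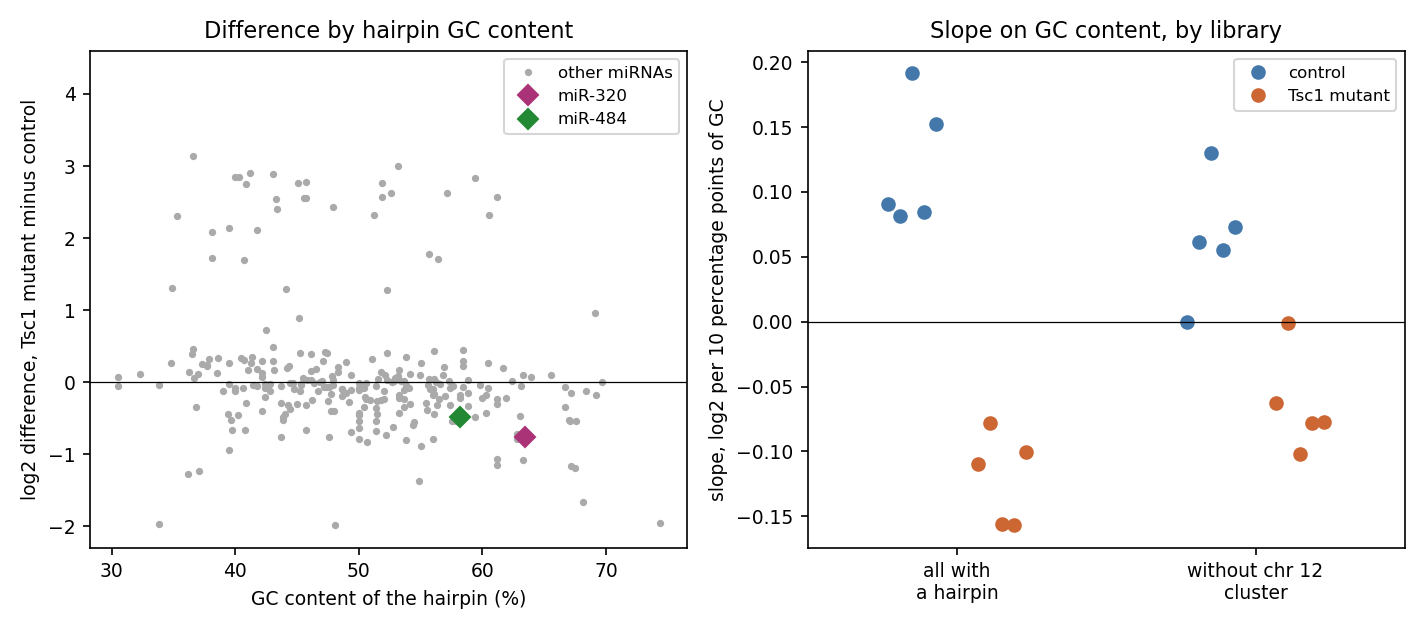
Left, log2 difference, Tsc1 mutant minus control, against the GC content of the hairpin for 275 miRNAs, with miR-320 and miR-484 as diamonds. Right, slope of log2 values on hairpin GC content in each library, per 10 percentage points and relative to the mean of the libraries, with and without the chromosome 12 cluster; in both, every control lies above every mutant, by a narrow gap without the cluster.

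The libraries held between 6228497 and 12129069 miRNA reads, and 0 of 45 pairs of libraries held identical values. The correlation with log2 depth was, as Pearson's r, 0.11 for miR-320 and 0.20 for miR-484 (n = 10). As Spearman's rho it was 0.32 and 0.30. The library numbers in the sample descriptions are consecutive within each genotype, so any order of handling that followed them and genotype cannot be told apart. All 5 hepatocyte names had rows, with summed levels of 3424630 to 5492140 normalised reads in controls and 3713770 to 4565320 in mutants, and all 3 exocrine pancreas names had none. The hepatocyte sum is mostly miR-122; miR-802 of the same list was called higher, at a log2 difference of 1.72, with every mutant above every control. All 5 biliary epithelial miRNAs had log2 differences below 0, with none called. Their summed levels ran from 4996 to 35789 normalised reads in controls, with the highest in control 2, and from 3126 to 7014 in mutants. The 3 striated muscle miRNAs with rows, of 5 listed, had a median log2 difference of -1.27, from -1.99 for miR-133a to 0.73 for miR-206, with none called. Their summed levels ran from 268 to 5638 normalised reads in controls, again highest in control 2, and from 151 to 919 in mutants. The 2 neural miRNAs with rows, of 3 listed, had a median of -0.47 and summed levels of 66.4 to 175 in controls and 56.6 to 93.0 in mutants, with none called. The leukocyte, erythroid, endothelial and stellate or smooth muscle lists had medians from -0.08 to 0.11, with none called. Without control 2 the log2 differences were -0.74 for miR-320 and -0.44 for miR-484, against -0.77 and -0.48 with all libraries. The call of miR-320 was lost, as in most fits without 1 library, and miR-484 was not called with or without control 2. The part of these cell types in the pair's lower values was otherwise not tested. In whole liver, fewer cells of a type and less RNA per cell cannot be told apart.

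**Figure D5:**
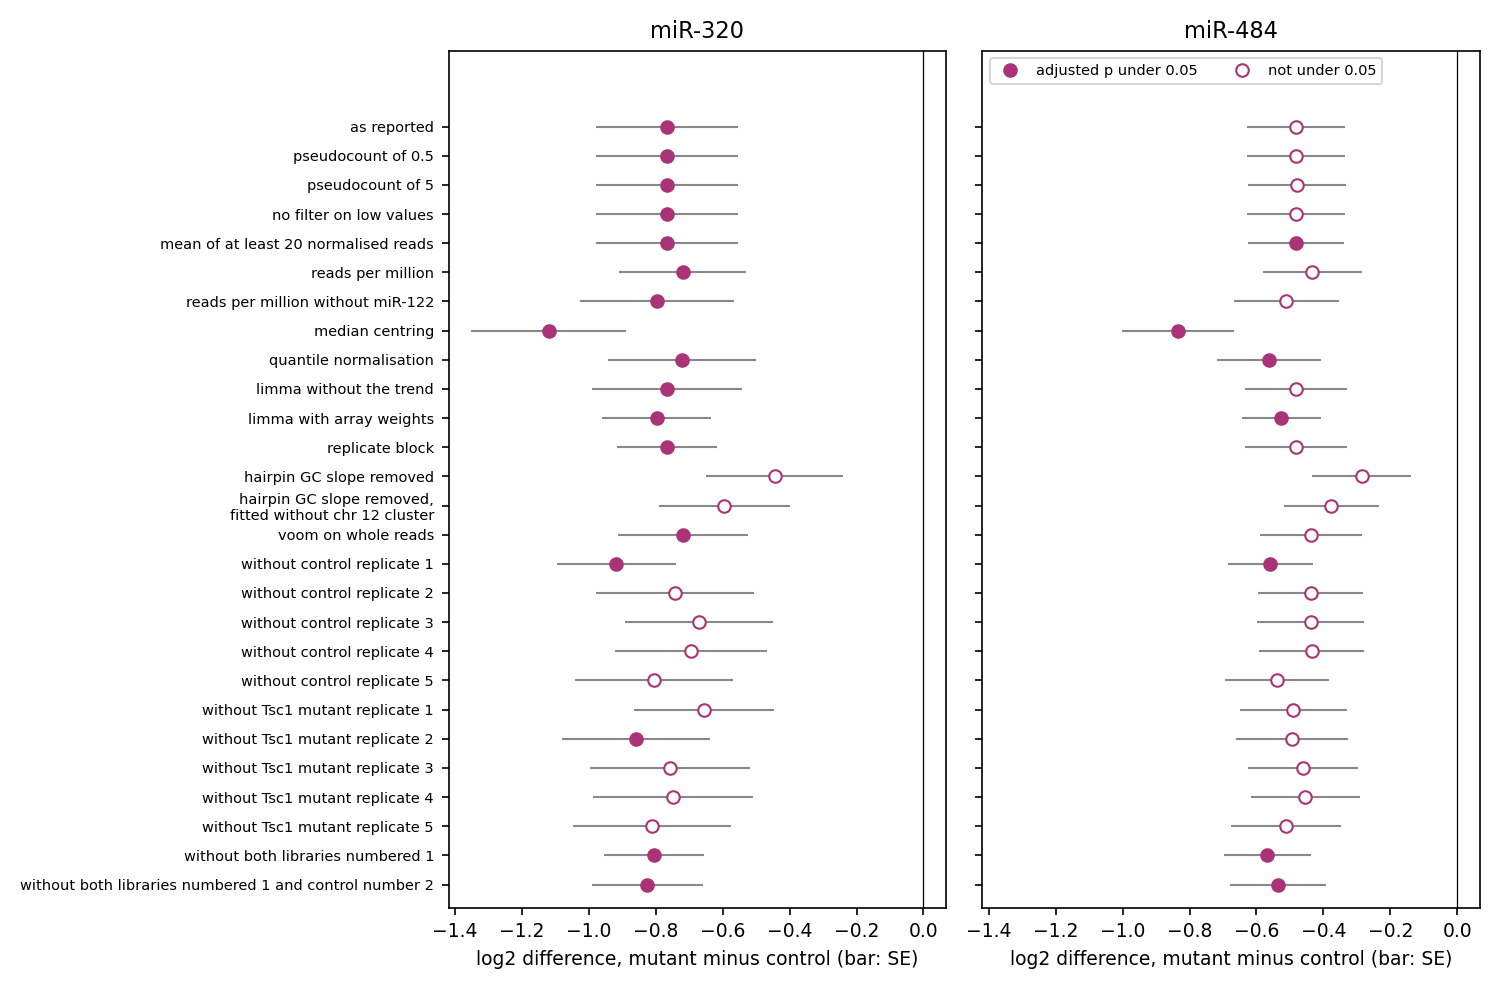
Log2 difference, Tsc1 mutant minus control, of miR-320 (left) and miR-484 (right) as reported and under each alternative; bars are SE and filled points have a limma adjusted p under 0.05 over the whole table. All values lie below 0, from -1.12 to -0.44 for miR-320 and from -0.83 to -0.28 for miR-484.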

How the data were processed

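Small RNA libraries were made from TRIzol-extracted liver RNA and read on an Illumina sequencer, according to the labels' protocols. The deposited values are a normalised signal, miRNA read counts that the authors scaled with a single factor for each library; DESeq is named in the submitters' processing notes. For the aligner, miRNA annotation, build and filters, the sources used here give no name. All values were whole multiples of 1 step per library within 0.001, and the step, 0.711 to 1.68 normalised reads, was taken as 1 read. Intervals take in counting error alone. Genotypes were compared on log2(value + 1) with limma 3.58.1 in R 4.3.3, with genotype as the only term and an intensity trend, over all 285 miRNAs, each with a mean of at least 5, at a Benjamini-Hochberg adjusted p of 0.05. The fit was tested on simulated data with independent noise for each miRNA, so deviations that libraries share across miRNAs were not covered. Hairpins came from GENCODE M21 (GRCm38), in which 275 miRNAs, or 96.5%, had one by name, and mature sequences from RefSeq, in which 81 had their exact name. Members and lists were chosen with earlier results of these data known. Named miRNAs are the members, their 5 most alike by level and 3 by deviation, 2 neighbours by mean on each side, those sharing a seed, the 5 closest in GC content, miR-122, and listed non-canonical miRNAs. Alternatives were other pseudocounts, filters, scalings, limma settings, a replicate block and left-out libraries; slopes on hairpin GC content, voom on whole reads and 1 set of left-out libraries were added after the data were seen. Over all miRNAs, deviations from the genotype mean had an r of 0.81 between control 1 and mutant 1 and 0.46 between libraries numbered 4. The other same-numbered libraries had r from -0.02 to 0.16, so numbers were not taken as pairs.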

Additional observations from a re-analysis of the deposited data

Results flagged for a closer look

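Of 20 groups of 5 values examined, for the 8 rows with non-canonical precursors, the ratio of miR-320 to miR-484 and the slope on GC content, 1 had a library far from the other 4, where chance gives about 1. miR-451 was at 3643 normalised reads in control 1, against 1117 to 1731 in the other controls.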

How the results depend on the processing

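Under 26 alternatives no difference changed sign: miR-320 ranged from -1.12 to -0.44, miR-484 from -0.83 to -0.28 and their log2 ratio from -0.37 to -0.16. miR-320 kept its call in 16 of them; it was lost at -0.44 with the hairpin GC slope removed, at -0.60 with the slope fitted outside the chromosome 12 cluster, and in 8 of 10 fits without 1 library, which ranged from -0.92 to -0.65. miR-484, not called as reported, was called with a minimum mean of 20 (-0.48), median centring (-0.83), quantile normalisation (-0.56) and array weights (-0.53). It was also called without both libraries numbered 1 (-0.57) and without these and control 2 (-0.53). Of the 10 fits without 1 library, which ranged from -0.56 to -0.43, only that without control 1 (-0.56) called it. The cause of these changes was not tested. Relative to the median of all miRNAs, median centring left miR-320 at -0.71 and miR-484 at -0.43, as reported.

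The 6 miRNAs called lower became 45 with median centring, 20 with quantile normalisation, 23 with array weights, 11 without both libraries numbered 1, 13 without these and control 2, and 2 to 10 without 1 library (10 without control 1, 3 without control 3 or 5, 2 without mutant 4); those called higher stayed between 28 and 40. The correlation of the pair, 0.90, was 0.96 without both libraries numbered 1 and 0.98 without these and control 2, and ranged from 0.87 to 0.95 without 1 library; it was 0.82 and 0.85 with the GC slopes removed, 0.84 with quantile normalisation and 0.85 as CPM or with voom. Within genotype, 0.74 became 0.89 without those 3 libraries and ranged from 0.53, without control 1, to 0.89, without mutant 1; it was 0.57 as CPM, with quantile normalisation and with voom, and 0.81 as CPM without miR-122. With a replicate block the log2 differences stayed at -0.77 and -0.48, the call of miR-320 was kept, miR-484 was not called, miR-455 was called lower at -1.37 and 10 miRNAs were called lower; same-numbered libraries were not shown to be pairs. Omitting the filter changed nothing, because all rows passed it. The planned count-based tests were not run, and a slope on mature GC content was void because only 28.4% of rows had a value.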

Other observations

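By mean level miR-320 ranked 61 of 285 and miR-484 ranked 97. The rows next to miR-320 were miR-127 and miR-532-5p above it and let-7e and miR-199a-5p below it, with log2 differences, mutant minus control, of 2.62, 0.28, 0.01 and -0.10. Of these miR-127, a member of the imprinted chromosome 12 cluster, was called higher by limma and the others were not called. The rows next to miR-484 were miR-23a and miR-378b above it and miR-328 and miR-128 below it, at -0.18, -0.06, -0.53 and -0.43 on the log2 scale, and none was called. miR-328 ranged from 608 to 2030 normalised reads over the 10 libraries, wider than the 878 to 1509 of miR-484.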
